A study of Mus musculus with 18 samples.

Results

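Hippocampal transcript levels after reversal learning (WT_RL, 3 wild-type mice) were set against those after original learning (WT_OL, 3 wild-type mice) in the Morris water maze (MWM), over all 15329 genes that the study listed. These 6 libraries, chosen by their sample titles, belong to a series of 18. WT and *Ccny* knockout (KO) mice, 3 per group, were taken without training (WT_Basal, KO_Basal), after original learning (WT_OL, KO_OL) and after original and then reversal learning (WT_RL, KO_RL). All mice were C57BL/6J, 8 to 10 weeks old by the labels and male by the methods of the study, and each library came from the hippocampus of 1 mouse. KO mice carry a knockout of *Ccny*, the gene of cyclin Y, a postsynaptic protein. Original learning comprised 5 training days of 4 trials, followed by a probe test on day 6. Reversal learning began 24 h after that test, with the hidden platform in the opposite quadrant, for 3 days of 4 trials and a second probe test on day 4. WT_RL mice were therefore trained and handled on more days than WT_OL mice, and no group swam the additional days with an unmoved platform, so the new platform place and the additional days of swimming cannot be told apart. The hour of tissue collection is not given in the sources used here.

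In the MWM a mouse learns the place of a hidden platform from cues around the pool, and reversal learning asks it to replace that place by a new one, a test of memory flexibility that depends on the hippocampus. Neuronal activity switches on immediate early genes such as *Fos* and *Egr2* within minutes, and these transcripts decay again within hours. Swimming and handling also act through glucocorticoid hormones and the daily clock, which drive their own target genes in neurons, glia and vessels. The values are log2(CPM + 1), where CPM is a read count scaled by the authors to the size of its library with TMM factors, and a log2 fold change is the mean of WT_RL minus the mean of WT_OL on this scale. Because 1 is added before the log, changes of weakly expressed genes are understated. Values given in threes in a sentence belong to replicates 1 to 3 in that order.

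The 6 libraries held between 31830344 and 37915576 reads on the listed genes, and the groups did not overlap in depth. WT_OL libraries held 32749133, 31830344 and 32853026 reads, and WT_RL libraries 37915576, 35808246 and 33377861. The mapping rate that the study lists was also higher in each WT_RL library than in any WT_OL library. These differences cannot be told apart from training by this design, and their part in the calls was not tested. Mice of both groups differed more from each other than mice of the other groups did. The median SD of a gene over the 3 mice was 0.168 in WT_OL and 0.148 in WT_RL, on the log2 scale, against 0.0899 to 0.109 in the other 4 groups. The lowest correlation between libraries of a group was 0.984 in WT_OL (replicates 2 and 3) and 0.982 in WT_RL (replicates 1 and 3). As a check of the tissue, *Prox1*, a transcription factor of dentate granule cells, was read at 45.1, 34.4 and 88 CPM in WT_OL and 75.8, 84.9 and 67.2 in WT_RL. Transcripts of the choroid plexus, an epithelium of the brain ventricles, differed widely between mice. The summed CPM of its 24 markers was 5109, 4494 and 3285 in WT_OL and 239, 1462 and 13266 in WT_RL. *Ccny* transcripts stood at 114, 119 and 150.3 CPM in WT_OL and 148, 128 and 107 in WT_RL, against 75, 74 and 76 in KO_OL and 76.2, 84.3 and 78.6 in KO_RL, so the transcript was lower in every KO mouse but still read. Whether the remaining reads lie outside the altered part of the gene was not tested.

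Between WT_RL and WT_OL, 40 genes (0.261% of 15329) passed an adjusted p under 0.05 in limma, 16 higher (0.104%) and 24 lower (0.157%) after reversal learning. Genes that rose included lipid droplet and glucocorticoid-responsive transcripts (*Plin4*, *Fkbp5*, *Hif3a*) and chaperones of the endoplasmic reticulum (*Calr*, *Hsp90b1*, *Pdia6*). Genes that fell included *Egr2*, the clock genes *Ciart* and *Per1*, cholesterol synthesis genes (*Hmgcs1*, *Cyp51*, *Lss*) and transcripts of vessel cells (*Apold1*, *Slco1a4*, *Itm2a*, *Rgs5*). For each of the 40 genes the 3 mice of WT_RL lay apart from the 3 of WT_OL, as they did for 11.1% of all genes (5.74% higher and 5.34% lower in WT_RL). The log2 fold changes ran from 0.31 to 2.27 in size, with 9 higher and 14 lower genes past 1.5-fold. The median over all genes was 0.0072. By the criteria of the study, over 1.5-fold at an unadjusted p under 0.05, 181 genes (1.18%) passed in this fit, 89 higher (0.581%) and 92 lower (0.6%). This split was uneven with voom (131 higher, 307 lower), with a ratio of mean CPM (135 and 290), with library weights (86 and 305) and without WT_RL replicate 3 (56 and 307), and leaned the other way with a pseudocount of 5 CPM (38 and 25).

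These calls, and every SE given here after ±, rest on the spread estimated from all 18 libraries. The median SD was larger in WT_OL and WT_RL than in the other 4 groups, so these SEs and limma p-values may be too small for this comparison. In a fit of the 6 libraries alone 0 genes passed in limma at the adjusted threshold, with 799 genes at an unadjusted p under 0.05 against 2507 (16.4%) in the fit of 18, and the 40 genes had unadjusted limma p-values of 0.000112 to 0.0134 there. Leaving out single libraries moved the number of calls from 40 to 0 without WT_OL replicate 1, 1 (*Ciart*) without WT_OL replicate 2, 2042 without WT_OL replicate 3, 90 without WT_RL replicate 1, 6 without WT_RL replicate 2 and 32 without WT_RL replicate 3. The split of the calls turned to more higher than lower genes without WT_OL replicate 3 (1429 higher, 613 lower), without WT_RL replicate 1 (64 and 26), with library weights (1489 and 978) and with a floor of 1 CPM (22 and 19). All 40 genes kept their direction in each of the 19 alternative settings. For a single gene, exact permutation of 3 and 3 mice (two-sided) allows no p below 0.1, which is the value of all 40 genes.

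**Figure D1:**
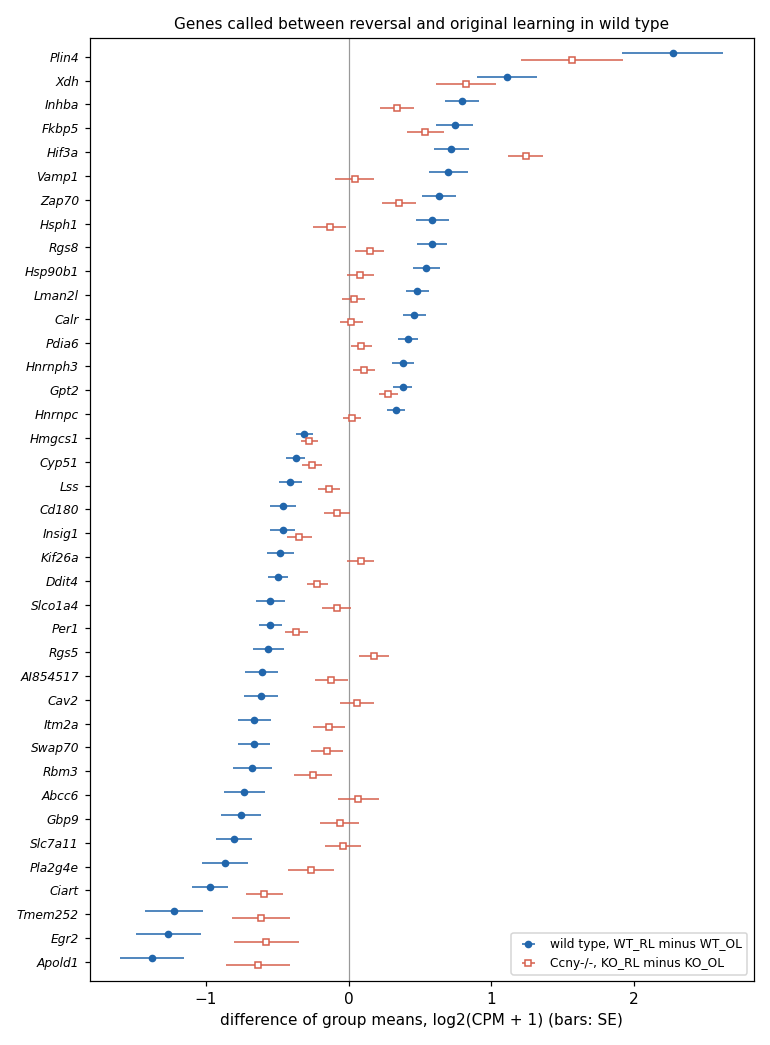
Difference between reversal and original learning for 39 of the genes called in wild type. The horizontal axis is the change in mean log2(CPM + 1), with 3 mice per group. Bars are its SE from the spread shared by all 18 libraries, not from the compared mice alone. Filled circles are WT_RL minus WT_OL and open squares KO_RL minus KO_OL. Each gene shown but *Hif3a* changed less in KO mice than in WT.

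Among the genes that rose, *Plin4*, which encodes a coat protein of lipid droplets and responds to glucocorticoids, had the largest log2 fold change. It was measured at 5.16, 3.23 and 2.68 CPM in WT_OL and 25.9, 9.81 and 36.1 CPM in WT_RL replicates 1 to 3, a log2 fold change of 2.27 ± 0.36 (SE, adjusted p = 0.0211, limma). The 3 WT_RL mice spread widely, yet the lowest of them lay above every WT_OL mouse. *Plin4* (chr17:56100591-56109803, GRCm38) shares exon sequence with *Hdgfl2* on the opposite strand, and the strand setting of the counting is not given. *Xdh*, the xanthine oxidoreductase of purine breakdown, stood at 7.8, 4.3 and 5.2 CPM in WT_OL and 10.1, 16.3 and 14.1 in WT_RL (log2 fold change 1.11 ± 0.21, adjusted p = 0.0405). *Inhba*, the activin A subunit induced by synaptic activity, was low in both groups but did not overlap, with 1.84, 1.75 and 2.46 CPM in WT_OL and 4.34, 3.82 and 4.48 in WT_RL (0.79 ± 0.12, adjusted p = 0.0197). *Vamp1*, a vesicle SNARE of fast-releasing terminals, rose from 131, 112 and 120.4 CPM in WT_OL to 145, 212 and 247 CPM in WT_RL (0.70 ± 0.14, adjusted p = 0.0446), with WT_RL replicate 1 close to the WT_OL mice.

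*Zap70*, a tyrosine kinase best known from T cells, was read at 3.59, 3.44 and 3.23 CPM in WT_OL and 6.86, 5.57 and 5.24 in WT_RL (0.63 ± 0.12). *Rgs8*, a GTPase-activating protein for G protein alpha subunits, stood at 99.8, 84.5 and 123 CPM in WT_OL and 147, 145 and 167 in WT_RL (0.59 ± 0.10). Other rises were smaller. *Gpt2*, the mitochondrial alanine aminotransferase, went from 83.9, 92.2 and 83.3 CPM in WT_OL to 111, 118 and 109 CPM in WT_RL (0.38 ± 0.06, adjusted p = 0.0253, limma), and *Lman2l*, a lectin of the secretory pathway, from 37.9, 36.5 and 47.1 CPM in WT_OL to 57.2, 56.5 and 56 CPM in WT_RL (0.48 ± 0.08). The RNA-binding proteins *Hnrnpc* and *Hnrnph3* rose by 0.33 ± 0.06 and 0.38 ± 0.07 on the log2 scale. *Hnrnpc* was the 1 called member of 34 splicing factors (list median 0.09). Of the 34, 8 had an unadjusted limma p under 0.05 in the higher direction and 0 in the lower, where 9.96% and 6.39% of all genes did. Exons of *Rgs8*, *Lman2l* and *Hnrnph3* also overlap genes on the opposite strand.

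The genes that rose included 4 chaperones or folding enzymes. Of 20 heat shock and chaperone genes, 3 passed the adjusted test, all higher, and 15 had an unadjusted p under 0.05 in limma in the higher direction, against 9.96% of all genes. The median log2 fold change of the list was 0.34, and 19 of its 20 members were positive. The called members were *Calr* and *Hsp90b1*, which fold glycoproteins and other secreted proteins in the endoplasmic reticulum, and *Hsph1*, a cytosolic co-chaperone of Hsp70. *Pdia6*, a disulfide isomerase of the endoplasmic reticulum that is not on the list, also rose. *Calr* stood at 314, 342 and 349 CPM in WT_OL and 429, 469 and 486 in WT_RL (log2 fold change 0.46 ± 0.08, adjusted p = 0.0253). *Hsp90b1* stood at 324, 296 and 378 CPM in WT_OL and 453, 453 and 551 CPM in WT_RL (0.55 ± 0.10, adjusted p = 0.0257). For both genes the lowest WT_RL mouse lay well above the highest WT_OL mouse.

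*Pdia6* was measured at 99.3, 103 and 107 CPM in WT_OL and 131, 134 and 149 in WT_RL (0.42 ± 0.07, adjusted p = 0.0253, limma). *Hsph1* was measured at 298, 245 and 372 CPM in WT_OL and 452, 427 and 479 in WT_RL (0.59 ± 0.12, adjusted p = 0.0451). The WT_OL mice were spread more than those of WT_RL, with replicate 3 highest. *Hspa5*, the Hsp70 of the endoplasmic reticulum, had 275, 279 and 304 CPM in WT_OL and 363, 362 and 511 in WT_RL without passing the test (0.51 ± 0.13, adjusted p = 0.112). *Hspa8*, the constitutive cytosolic Hsp70, also failed the test with groups that did not overlap, at 1519, 1501 and 1674 CPM in WT_OL and 1972, 2065 and 2008 in WT_RL (0.37 ± 0.08, adjusted p = 0.0824). The heat-inducible pair *Hspa1a* and *Hspa1b*, near-identical neighbours whose reads may be split between them, had log2 fold changes of 0.55 ± 0.24 and 0.71 ± 0.25, neither past the adjusted test. Summed over the list, CPM was 6875, 6347 and 7565 in WT_OL and 8592, 8530.1 and 9142 in WT_RL. Exons of *Hsp90b1* and *Pdia6* overlap other genes, *Hsp90b1* on both strands. The number of called chaperones was 0 without WT_OL replicate 1, WT_OL replicate 2, WT_RL replicate 2 or WT_RL replicate 3, 2 without WT_RL replicate 1 and 10 without WT_OL replicate 3, while the number at an unadjusted p under 0.05 stayed between 10 and 14.

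*Calr*, *Hsp90b1* and *Pdia6*, the called chaperones and folding enzyme of the endoplasmic reticulum, share a promoter element. It was chosen for the search with earlier results of these data known, so its presence is a description and not independent evidence. Its part in the change was not tested. The ER stress element was searched as CCAAT followed after 9 bases of any kind by CCACG. Both strands of the 250 bases before each RefSeq start (GRCm38.p6) were searched. The element was found in 0.113% of 32851 promoters, and in 0.13% of 27025 genes with a listed promoter. It was present in 3 of the 15 higher genes with a listed promoter (*Calr*, *Hsp90b1* and *Pdia6*) and in 0 of 19 lower genes. Of the 15 chaperone list members with a listed promoter, 3 held it (*Calr*, *Hsp90b1* and *Hspa5*). These 4 promoters are shown 5′ to 3′ on the strand of the gene, with the element in capitals, because it is the sequence feature that they have in common. They lie at chr8:84846932-84847181 (*Calr*, minus strand), chr10:86705445-86705694 (*Hsp90b1*, minus strand), chr12:17266339-17266588 (*Pdia6*, plus strand) and chr2:34771840-34772089 (*Hspa5*, plus strand).
Calr: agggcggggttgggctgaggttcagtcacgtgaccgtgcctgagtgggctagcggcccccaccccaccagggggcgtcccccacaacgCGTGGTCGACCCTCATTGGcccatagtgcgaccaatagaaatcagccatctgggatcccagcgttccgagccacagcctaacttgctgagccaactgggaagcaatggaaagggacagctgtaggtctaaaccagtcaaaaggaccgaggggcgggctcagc
Hsp90b1: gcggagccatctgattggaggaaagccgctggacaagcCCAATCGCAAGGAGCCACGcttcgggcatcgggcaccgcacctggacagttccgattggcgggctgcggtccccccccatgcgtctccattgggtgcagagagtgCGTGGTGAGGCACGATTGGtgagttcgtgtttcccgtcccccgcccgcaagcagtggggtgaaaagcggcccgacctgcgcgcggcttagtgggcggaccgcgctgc
Pdia6: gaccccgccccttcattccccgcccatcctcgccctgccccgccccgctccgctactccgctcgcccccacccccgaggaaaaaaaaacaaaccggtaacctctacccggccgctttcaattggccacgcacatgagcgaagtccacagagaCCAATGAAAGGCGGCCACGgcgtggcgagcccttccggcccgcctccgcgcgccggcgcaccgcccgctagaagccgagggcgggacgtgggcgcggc
Hspa5: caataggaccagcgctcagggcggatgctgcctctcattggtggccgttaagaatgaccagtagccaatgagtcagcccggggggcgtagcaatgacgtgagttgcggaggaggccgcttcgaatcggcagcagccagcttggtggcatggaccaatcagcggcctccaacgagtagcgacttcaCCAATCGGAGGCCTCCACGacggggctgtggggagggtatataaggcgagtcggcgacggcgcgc
The element begins 162 bases before the start in *Calr*, 212 and 107 bases before it in *Hsp90b1*, 98 in *Pdia6* and 65 in *Hspa5*. A match of letters is a description of these windows and not a measured binding site.

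**Figure D2:**
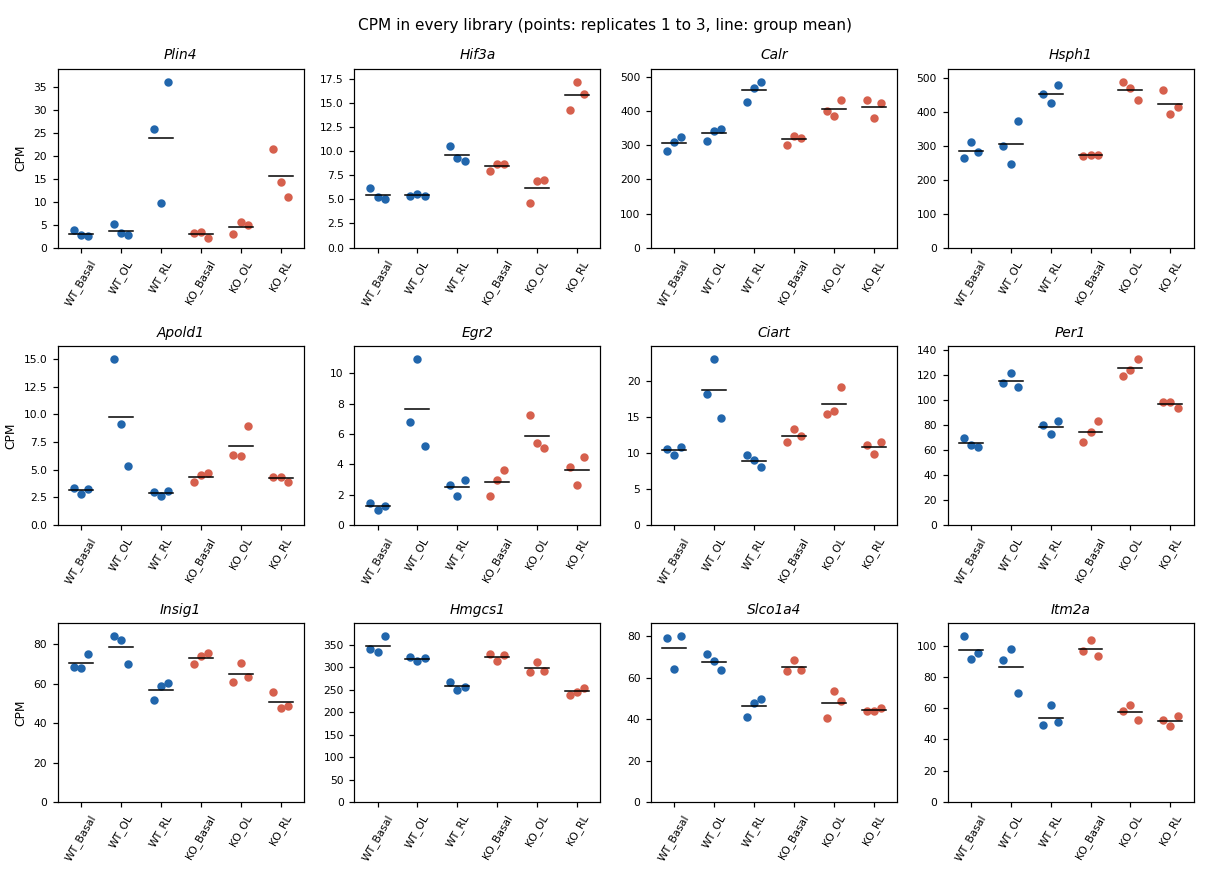
CPM of 12 called genes in all 18 libraries, 1 point per mouse with a line at the group mean, blue for WT and red for *Ccny* KO, on axes that start at 0. *Plin4* reached 9.81 to 36.1 CPM in WT_RL against at most 5.16 in WT_OL, and *Apold1* stood at 5.3 to 15 CPM in WT_OL against at most 3.06 in WT_RL.

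Of 23 immediate early transcription factors, 1 passed the adjusted test, and it fell after reversal learning. *Egr2*, a zinc finger factor of late-phase plasticity, fell from 6.82, 10.9 and 5.17 CPM in WT_OL to 2.63, 1.89 and 2.97 CPM in WT_RL (log2 fold change -1.26 ± 0.23, adjusted p = 0.0351, limma). Every WT_RL mouse lay below every WT_OL mouse, and above the WT_Basal mice at 1.47, 0.966 and 1.27 CPM. Of the list, 11 had an unadjusted p under 0.05 in the lower direction, against 6.39% of all genes, and 0 in the higher direction, with a list median of -0.29. *Fos* stood at 35.5, 29.1 and 22.4 CPM in WT_OL and 14.8, 13.8 and 16.4 in WT_RL (-0.89 ± 0.22, adjusted p = 0.106), against 7.59, 5.73 and 6.43 CPM in WT_Basal. *Junb* stood at 81.2, 75.8 and 68 CPM in WT_OL and 54, 41.1 and 42.7 CPM in WT_RL (-0.70 ± 0.15, adjusted p = 0.062). For both genes the groups did not overlap, but neither passed the adjusted test. *Ier2*, *Nr4a1*, *Egr1* and *Egr4*, other factors of the same early wave, had log2 fold changes of -0.86, -0.73, -0.63 and -0.51, also without overlap and without passing.

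Not every activity-induced transcript was lower. *Fosb* (log2 fold change 0.14 ± 0.15), which yields a long-lived protein, and *Egr3* (0.14 ± 0.10) had overlapping groups. Among 21 activity-induced effectors, 8 had an unadjusted limma p under 0.05 in the higher and 7 in the lower direction (9.96% and 6.39% of all genes), with only *Inhba* past the adjusted test. *Arc*, which controls AMPA receptor endocytosis, stood at 312, 381 and 196 CPM in WT_OL and 163, 138 and 177 in WT_RL (-0.84 ± 0.26, adjusted p = 0.17). The neurosecretory protein gene *Scg2* stood at 217, 192 and 267 CPM in WT_OL and 305, 336 and 320.0 CPM in WT_RL (0.52 ± 0.13, adjusted p = 0.113), and *Bdnf*, the neurotrophin, at 42.4, 33.1 and 53.2 CPM in WT_OL and 55.5, 52.9 and 53.8 CPM in WT_RL (0.35 ± 0.15). Of 12 feedback genes of the MAPK pathway, which activity also induces, 0 passed the adjusted test in limma and 2 had an unadjusted p under 0.05, both lower. Called immediate early factors numbered 0 without WT_OL replicate 1, WT_OL replicate 2 or WT_RL replicate 2, 9 without WT_OL replicate 3, 2 without WT_RL replicate 1 and 1 without WT_RL replicate 3, while 9 to 12 of the 23 were lower at an unadjusted p under 0.05 in each of the 6 omissions.

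The clock list held the gene called under the most alternative settings. *Ciart*, a transcriptional repressor of the circadian clock, fell from 18.2, 23.1 and 14.9 CPM in WT_OL to 9.69, 8.96 and 8.11 CPM in WT_RL (log2 fold change -0.97 ± 0.13, adjusted p = 0.0137, limma). It was called in 15 of the 19 alternative settings and in 5 of the 6 omissions of a library, the exception among these being WT_OL replicate 1. *Per1*, a core clock repressor that is also induced by glucocorticoids and by activity, fell from 114, 121 and 111 CPM in WT_OL to 79.7, 72.8 and 82.9 CPM in WT_RL (-0.55 ± 0.08, adjusted p = 0.0194), with the mice of each group within a narrow range. *Dbp*, an output gene of the clock, stood at 92.3, 119.9 and 78.7 CPM in WT_OL and 54.4, 68.8 and 58.2 CPM in WT_RL (-0.66 ± 0.13, adjusted p = 0.0521). *Arntl*, which encodes the activator BMAL1 that drives these genes, stood at 21.6, 20.8 and 26.2 CPM in WT_OL and 31.4, 31.4 and 27.2 in WT_RL (0.38 ± 0.10, adjusted p = 0.139). Of 19 clock genes, 2 passed the adjusted test, both lower, with a list median of -0.02. At an unadjusted limma p under 0.05, 4 were lower and 2 higher, where 6.39% of all genes were lower and 9.96% higher, so that the higher members were near the share of all genes.

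The 250 bases before the start of *Ciart* (chr3:95882229-95882478, GRCm38.p6, minus strand) hold 3 E-boxes, searched as CACGTG, the element that BMAL1 and its partner CLOCK recognise. They are shown in capitals because of this gene's place among the calls.
Ciart: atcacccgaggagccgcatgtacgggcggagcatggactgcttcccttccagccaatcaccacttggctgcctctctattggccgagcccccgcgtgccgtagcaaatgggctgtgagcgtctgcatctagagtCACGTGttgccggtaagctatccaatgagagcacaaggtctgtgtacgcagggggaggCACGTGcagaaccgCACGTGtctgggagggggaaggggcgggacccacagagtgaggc
The 3 matches begin 116, 58 and 44 bases before the start. An E-box, a palindrome whose matches overlap no other element here, was found in 6.02% of promoters and in 6.86% of genes with a listed promoter. It was present in 3 of 15 higher and 4 of 19 lower genes with a listed promoter, *Per1* included. Of the 17 clock list members with one, 5 held it. Other elements were also searched. The glucocorticoid response element was AGAACA followed after 3 bases by TGTTC (0.0304% of promoters, 0.0333% of genes with one). It matched 0 of the called genes and 1 of 19 glucocorticoid list members with a listed promoter, *Sgk1*. The heat shock element was 3 alternating units of GAA and TTC with 2 bases between them (0.466% and 0.514%). It matched 0 of the called genes and 2 of the 15 chaperone list members with a listed promoter, *Hspd1* and *Hspe1*. The cAMP response element TGACGTCA (1.55% and 1.77%) matched *Zap70* alone among the called genes. It also matched *Hlf*, *Dusp1*, *Btg2* and *Maff* of the clock, glucocorticoid and immediate early lists.

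Genes induced by glucocorticoids moved in both directions. Of 20 such genes, 3 rose (*Plin4*, *Fkbp5*, *Hif3a*) and 2 fell (*Per1*, *Ddit4*), with a list median of 0.16. *Fkbp5*, a co-chaperone that restrains the glucocorticoid receptor, stood at 68.7, 51.4 and 86.7 CPM in WT_OL and 120.3, 112 and 109 in WT_RL (0.74 ± 0.13, adjusted p = 0.0253, limma). The WT_OL mice ranged widely while the WT_RL mice were close together. *Hif3a*, a member of the hypoxia-inducible factor family, had little spread in either group, at 5.31, 5.58 and 5.36 CPM in WT_OL and 10.5, 9.27 and 8.93 in WT_RL (0.72 ± 0.12, adjusted p = 0.0253). *Ddit4*, an inhibitor of mTORC1, fell from 93.2, 95.4 and 89.4 CPM in WT_OL to 62.8, 65.6 and 68.2 CPM in WT_RL (-0.49 ± 0.07, adjusted p = 0.0194). *Zbtb16*, a zinc finger repressor, had non-overlapping values of 47.5, 32.7 and 55.5 CPM in WT_OL and 74.8, 68 and 71.6 CPM in WT_RL without passing the adjusted test (0.68 ± 0.15, adjusted p = 0.0745). *Dusp1*, a MAPK phosphatase, was on the lower side (-0.72 ± 0.17, adjusted p = 0.0978). At an unadjusted limma p under 0.05, 9 members were higher and 4 lower, where 9.96% and 6.39% of all genes were. The number of called members that rose was 0 without WT_OL replicate 1 or 2, 1 without WT_RL replicate 2 and 5 without WT_OL replicate 3.

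Neurons and glia make cholesterol in the brain itself, under control of the SREBP transcription factors. Of 22 genes of cholesterol synthesis and uptake, 5 passed the adjusted test, all lower and among them *Insig1*, *Lss*, *Cyp51* and *Hmgcs1*, where 0.157% of all genes were called lower. At an unadjusted limma p under 0.05, 15 were lower and 0 higher, where 6.39% and 9.96% of all genes were. Of the list, 20 were negative, with a list median of -0.27. *Insig1*, the sterol sensor that holds back SREBP, went from 84, 82.2 and 69.7 CPM in WT_OL to 51.6, 58.6 and 60.3 CPM in WT_RL (-0.46 ± 0.09, adjusted p = 0.0405). *Hmgcs1*, an early enzyme of the pathway, had the smallest fall of the 24 called genes and little spread, from 323, 314 and 322 CPM in WT_OL to 267, 250.3 and 255 CPM in WT_RL (-0.31 ± 0.06, adjusted p = 0.0406). *Cyp51* and *Lss*, which act on and form lanosterol, fell by 0.37 ± 0.07 and 0.41 ± 0.08 on the log2 scale. Exons of *Cyp51* overlap *Akap9*, and those of *Lss* and *Hmgcs1* overlap noncoding or predicted genes, on the opposite strand.

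Called cholesterol genes numbered 0 without WT_OL replicate 1, WT_OL replicate 2 or WT_RL replicate 2, 3 without WT_RL replicate 1 or 3, and 10 without WT_OL replicate 3. At an unadjusted limma p under 0.05, 12 to 16 of the 22 were lower in each of the 6 omissions. Summed over the list, CPM was 1668, 1656 and 1639 in WT_OL and 1441, 1424 and 1382 in WT_RL, with no overlap. A sterol regulatory element, searched as TCACNCCAC, was found in 1.05% of promoters and in 1.22% of genes with a listed promoter. Of the 14 list members with one, 1 held it, *Hmgcs1* (chr13:119690101-119690350, GRCm38.p6, plus strand), where it begins 137 bases before the start. The promoter is shown with this element in capitals as the 1 match among the genes of this pathway.
Hmgcs1: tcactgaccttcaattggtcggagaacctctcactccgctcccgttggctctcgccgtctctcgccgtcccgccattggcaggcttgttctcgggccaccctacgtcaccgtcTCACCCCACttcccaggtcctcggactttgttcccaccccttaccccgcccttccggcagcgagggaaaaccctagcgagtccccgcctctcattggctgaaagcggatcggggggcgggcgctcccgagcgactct
The same letters were found in *Hsp90b1*, which rose.

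The largest fall on the log2(CPM + 1) scale was that of *Apold1*, an endothelial early response gene, with 15, 9.11 and 5.3 CPM in WT_OL and 2.96, 2.6 and 3.06 in WT_RL (chr6:134981718-134986836, log2 fold change -1.38 ± 0.23, adjusted p = 0.0253, limma). The WT_OL mice were spread widely, whereas the WT_RL mice lay close together and near those of WT_Basal, at 3.36, 2.76 and 3.25 CPM. *Tmem252*, a small membrane protein gene, had the same order, at 3.77, 3.83 and 2.22 CPM in WT_OL and 0.549, 0.707 and 1.21 in WT_RL (-1.22 ± 0.20, adjusted p = 0.0253). As a ratio of mean CPM, WT_RL over WT_OL, *Tmem252* at 0.251 lay below *Apold1* at 0.293. Among 14 endothelial markers, 2 passed the adjusted test, both lower, where 0.157% of all genes were called lower. In all, 10 of the 14 were negative, and 4 were lower at an unadjusted limma p under 0.05, where 6.39% of all genes were. *Slco1a4*, an organic anion transporter of the blood-brain barrier, went from 71.4, 68.1 and 63.6 CPM in WT_OL to 41, 47.8 and 49.6 CPM in WT_RL (-0.55 ± 0.10), and *Itm2a* from 90.9, 98.1 and 70.0 CPM in WT_OL to 49.1, 62 and 50.9 CPM in WT_RL (-0.66 ± 0.11). The tight junction gene *Cldn5* stood at 27.9, 32.6 and 26.5 CPM in WT_OL and 29, 45.4 and 26.8 CPM in WT_RL (0.18 ± 0.15), with overlapping groups. *Rgs5*, a marker of pericytes and the 1 called gene of 12 vascular smooth muscle markers, fell from 65.1, 73.3 and 50.9 CPM in WT_OL to 39.8, 40.3 and 46 CPM in WT_RL (-0.56 ± 0.11, adjusted p = 0.0405).

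Summed over the 14 endothelial markers, CPM was 577, 646 and 544 in WT_OL and 458, 602 and 537 in WT_RL, with overlap, and the list median was -0.16. In bulk tissue, fewer cells of a type and less RNA per cell cannot be told apart. Called endothelial markers numbered 0 without WT_OL replicate 1 or 2, and 1 without any one of the WT_RL replicates. *Slco1a4* and *Itm2a* both remained called without WT_OL replicate 3. *Cav2*, a caveolin, fell by 0.62 ± 0.12 on the log2 scale.

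Other genes that fell had no common list. *Slc7a11*, the cystine-glutamate exchanger of astrocytes, went from 65.3, 63.9 and 74.1 CPM in WT_OL to 38.7, 34.5 and 42 CPM in WT_RL (-0.80 ± 0.13, adjusted p = 0.0211, limma), with no overlap. *Rbm3*, an RNA-binding protein induced by cold, went from 107, 113 and 81.7 CPM in WT_OL to 72.8, 55.5 and 59.1 CPM in WT_RL (-0.67 ± 0.13, adjusted p = 0.0465), and WT_Basal was higher still at 152, 115 and 145 CPM. *Swap70*, which binds F-actin, went from 17.8, 22 and 16.3 CPM in WT_OL to 10.7, 11.6 and 11.8 CPM in WT_RL (-0.66 ± 0.11). The phospholipase gene *Pla2g4e* went from 6.11, 8.9 and 6.03 CPM in WT_OL to 3.87, 3.28 and 2.91 CPM in WT_RL, the interferon-induced GTPase *Gbp9* from 4.78, 6.11 and 3.85 to 2.55, 2.09 and 2.79, and the transporter *Abcc6* from 2.58, 3.06 and 2.19 to 1.26, 1.07 and 1.15. *Gbp9* shares exon sequence with *Gbp4* and *Gbp8*, so that the assignment of its reads is uncertain. Exons of *Rbm3*, *Swap70* and *Cd180* overlap genes on the opposite strand, and those of *Pla2g4e* a predicted gene on the same strand. *Cd180*, *Kif26a* and the unnamed gene *AI854517* fell by 0.46, 0.48 and 0.61 on the log2 scale.

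**Figure D3:**
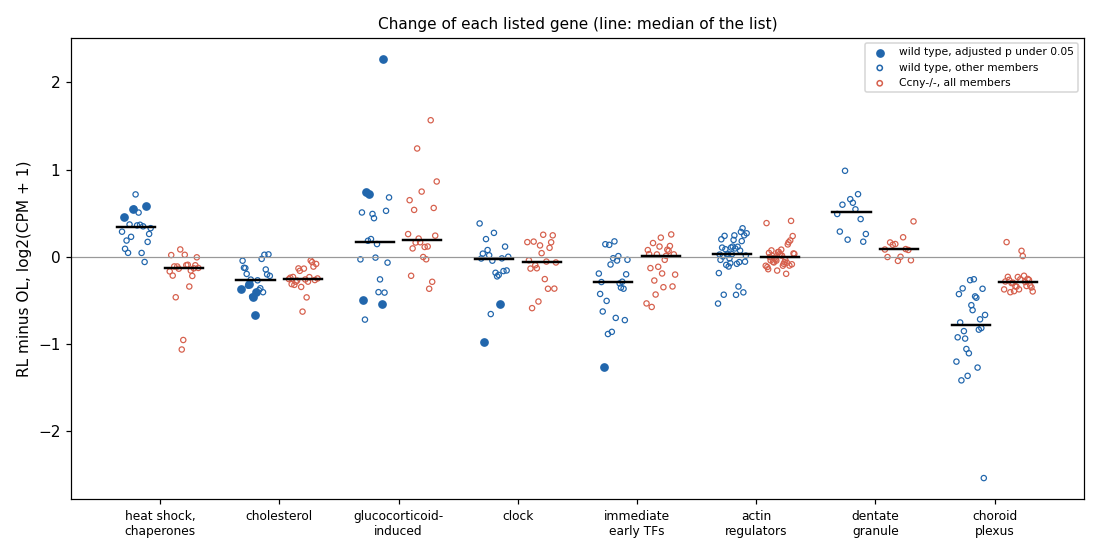
Change from original to reversal learning, on the log2(CPM + 1) scale, of each member of 8 gene lists, in WT (blue) and *Ccny* KO (red), with a line at the list median. Filled points passed an adjusted p under 0.05 in WT. The chaperone median was 0.34 in WT and -0.13 in KO, and the cholesterol median was -0.27 and -0.25.

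Actin remodelling shapes dendritic spines, and the study followed genes of this pathway. Of 36 actin regulators, 0 passed the adjusted test in limma, with 3 higher and 5 lower at an unadjusted p under 0.05 (9.96% and 6.39% of all genes) and a median of 0.03. The 9 members named next were singled out by the study on these samples, so their direction is not independent evidence. *Acta1* stood at 6.82, 10.7 and 6.34 CPM in WT_OL and 5.54, 5.94 and 3.85 in WT_RL (-0.54 ± 0.16, adjusted p = 0.169), and the kinase gene *Pak6* at 75.9, 104 and 80.7 CPM in WT_OL and 75.5, 70.4 and 47.7 CPM in WT_RL (-0.44 ± 0.14, adjusted p = 0.19), both without overlap, *Pak6* by a narrow margin. The small GTPase gene *Rac3* (-0.34 ± 0.13, adjusted p = 0.238) and the cofilin phosphatase gene *Ssh3* (-0.41 ± 0.19, adjusted p = 0.294) had overlapping groups. *Limk1*, *Wasf3*, *Actb*, *Pak3* and *Wasl* had log2 fold changes of 0.11, 0.01, 0.02, 0.24 and 0.27, all with overlap. The signs of *Wasf3*, *Actb* and *Pak3* turned under at least 1 alternative setting.

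Synaptic and housekeeping lists held few calls. *Vamp1* was the 1 called gene of 31 synaptic vesicle genes, where 0.104% of all genes were called higher. Of the 31, 26 were positive (median 0.17), as were 7905 of all 15329 genes. At an unadjusted limma p under 0.05, 8 of them were higher and 1 lower, against 9.96% and 6.39% of all genes. Glutamate receptors (26 genes, median 0.19), GABA-A receptor subunits (14, 0.06), postsynaptic scaffolds and kinases (25, 0.02) and neuropeptides (18, 0.13) had 0 called genes in limma, with 5, 0, 5 and 4 members higher and 1, 0, 0 and 2 lower at an unadjusted p under 0.05, where 9.96% of all genes were higher and 6.39% lower. Without WT_OL replicate 3, 5 glutamate receptor genes passed. Cytosolic ribosomal proteins had 45 of 48 members negative (median -0.13) and oxidative phosphorylation subunits 39 of 47 (median -0.11), with 0 called in limma and 0 lower even at an unadjusted p under 0.05. Nuclear noncoding RNAs were negative in WT for 13 of 14 (median -0.24), with 0 called in limma and 1 at an unadjusted p under 0.05 in each direction, and their median in KO was 0.26, with 6 higher at an unadjusted p under 0.05 (3.33% of all genes). Their summed CPM was 2991, 3228 and 2029 in WT_OL, 2219, 1928 and 2506 in WT_RL, 1646, 2167 and 2278 in KO_OL and 2246, 4077 and 2491 in KO_RL, and their part in the other results was not tested. The proteasome list had a median of -0.06, with 0 called and 1 gene at an unadjusted p under 0.05 in each direction.

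Markers of cell types also differed between the mice. Of all 15329 genes, 7905 were positive and 7422 negative, with 9.96% higher and 6.39% lower at an unadjusted limma p under 0.05. All 12 dentate granule markers were positive (median 0.52), 7 of them at an unadjusted limma p under 0.05 and 0 past the adjusted test. Their summed CPM was 647, 505 and 1091 in WT_OL and 1059.6, 1059.6 and 1031 in WT_RL, so that WT_OL replicates 1 and 2 lay low and replicate 3 lay with the WT_RL mice. *Pdzd2* stood at 63.4, 53.8 and 97.9 CPM in WT_OL and 107, 98.4 and 116 CPM in WT_RL (0.62 ± 0.17, adjusted p = 0.139), and *Dsp* at 39.7, 27.9 and 95 CPM in WT_OL and 92, 94.3 and 98.1 CPM in WT_RL. Without WT_OL replicate 3, 9 of the 12 passed, and without WT_OL replicate 2, 2 had an unadjusted p under 0.05. CA1 and CA3 pyramidal lists had medians of 0.01 and 0.19 and 0 called genes. All 24 choroid plexus markers were negative (median -0.79) with 0 called and 0 at an unadjusted p under 0.05, with *Ttr*, the transthyretin gene, at 12.2, 759 and 7685 CPM in WT_RL. Oligodendrocyte and myelin genes were negative for 15 of 16 (median -0.31, 0 called), with 3 lower at an unadjusted limma p under 0.05. Among them, *Opalin* stood at 35.2, 46.6 and 33.3 CPM in WT_OL and 16, 24.2 and 25.7 CPM in WT_RL (-0.79 ± 0.18, adjusted p = 0.0824). Meningeal fibroblast markers were negative for 12 of 14 (median -0.58, 0 called), with 5 lower at an unadjusted limma p under 0.05. Their summed CPM was 562, 519 and 533 in WT_OL and 268, 381 and 651 in WT_RL, with overlap. The other markers, of microglia, astrocytes, interneurons and neighbouring brain regions among others, had 0 called genes in limma. Among them, 11 of 14 thalamic and habenular markers were positive (median 0.24), with 3 higher and 1 lower at an unadjusted limma p under 0.05. Their summed CPM was 291, 219 and 293 in WT_OL and 266, 354 and 461 in WT_RL. *Slc17a6* of that list stood at 28.4, 61 and 93.9 CPM in WT_RL, and the called *Vamp1* also increased from WT_RL replicate 1 to 3. The part of these cell types in the calls above was not tested.

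**Figure D4:**
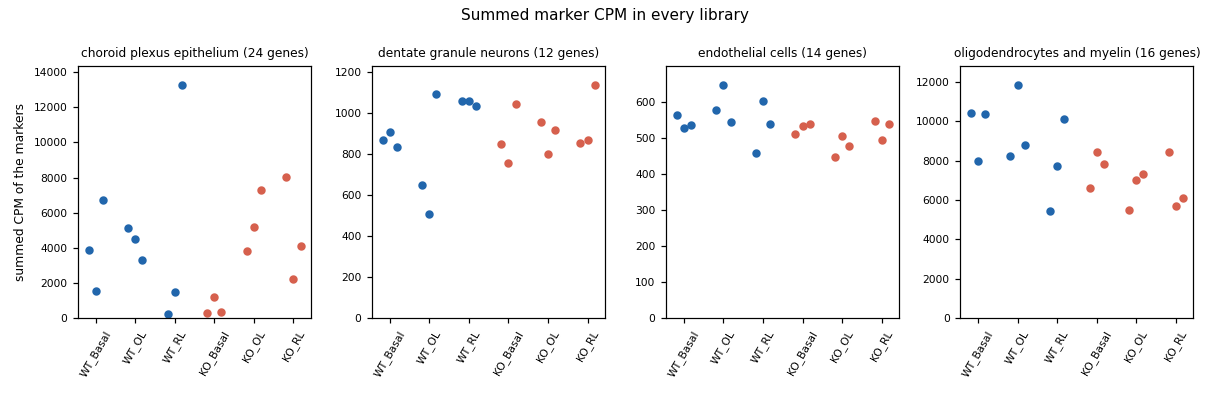
Summed CPM of the markers of 4 cell types in all 18 libraries, blue for WT and red for *Ccny* KO, on axes that start at 0. Choroid plexus markers ran from 239 to 13266 CPM within WT_RL, and dentate granule markers were at 505 and 647 CPM in WT_OL replicates 2 and 1 against 1031 to 1060 in WT_RL.

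The same step of training was measured in KO mice, in libraries that the WT comparison does not use. There, 3 genes (0.0196%) passed the adjusted test in limma, all higher, and 737 (4.81%) had an unadjusted p under 0.05, 510 higher (3.33%) and 227 lower (1.48%). *Hif3a* rose in KO mice from 4.63, 6.89 and 6.98 CPM in KO_OL to 14.3, 17.2 and 15.9 in KO_RL (log2 fold change 1.24 ± 0.12, adjusted p = 0.000305). It is the 1 gene called in both genotypes. *Mlph* and *Fam214a* rose in KO mice by 0.81 and 0.67 on the log2 scale, and in WT mice their changes were 0.62 ± 0.13 (adjusted p = 0.0521) and 0.16 ± 0.09 (adjusted p = 0.402). Of the 40 genes called in WT, 15 of 16 higher and 20 of 24 lower genes had the same sign in KO mice, against 55.2% of all genes with the same sign. The median change of the higher genes was 0.59 in WT and 0.13 in KO, and that of the lower genes -0.64 and -0.18. KO_RL and KO_OL mice did not overlap in the direction of WT for 7 higher and 15 lower genes and in the opposite direction for 1 (*Rgs5*), where 13.2% of all genes did not overlap in one direction or the other. *Plin4* stood at 2.97, 5.62 and 5.02 CPM in KO_OL and 21.5, 14.3 and 10.9 in KO_RL (1.57 ± 0.36). The 40 genes were chosen for their change in WT, so their smaller change in KO is given as a description.

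The gene groups had the following values in KO mice, with no test between the genotypes for a group. Among all genes, 3.33% were higher and 1.48% lower in KO mice at an unadjusted limma p under 0.05. Cholesterol genes had nearly the same median in KO (-0.25, with 15 of 22 lower at an unadjusted limma p under 0.05). Glucocorticoid-induced genes had a KO median of 0.19, with 9 of 20 higher at an unadjusted p under 0.05. Chaperones had a KO median of -0.13, with 0 higher and 3 lower at an unadjusted p under 0.05. The summed CPM of the 20 chaperones was 9048, 8591 and 8538 in KO_OL and 8677, 7818 and 7934 in KO_RL, and the KO_OL mice lay within the range of WT_RL. *Calr* stood at 402, 387 and 433 CPM in KO_OL and 434, 379.8 and 424 in KO_RL, and *Hspa1a* at 21.5, 22.2 and 20.1 CPM in KO_OL and 13.3, 8.74 and 7.67 in KO_RL (-1.06 ± 0.24). KO_OL mice stood at 58, 62.2 and 52.2 CPM for *Itm2a* and at 40.4, 53.7 and 48.6 CPM for *Slco1a4*, below every WT_OL mouse. Immediate early factors had a KO median of 0.01, with 4 of 23 lower at an unadjusted p under 0.05, and *Egr2* went from 7.24, 5.37 and 5.08 CPM in KO_OL to 3.82, 2.63 and 4.5 CPM in KO_RL (-0.58 ± 0.23).

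The difference between genotypes in this step was tested by an interaction term. It was passed by 0 of 15329 genes (0%) in limma (smallest adjusted p = 0.457) and by 0 with voom weights on recovered reads, and 1224 (7.98%) had an unadjusted p under 0.05 in limma. The 5 genes with the smallest unadjusted p were *Hcar1*, *Rgs5*, *Aox3*, *Hspa1a* and *Hspa1b*. *Hcar1*, the lactate receptor, stood at 2.08, 1.99 and 2.16 CPM in WT_OL, 0.933, 1.33 and 0.787 in WT_RL, 0.981, 0.648 and 1.01 in KO_OL and 1.97, 1.28 and 1.39 in KO_RL, a difference of 1.05 ± 0.21 (KO change minus WT change). For *Aox3*, an aldehyde oxidase, the difference was 1.31 ± 0.27, and for *Rgs5* 0.74 ± 0.15. For *Hspa1a* and *Hspa1b* it was -1.62 ± 0.34 and -1.67 ± 0.35.

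Levels in untrained WT mice are given for the same genes. These comparisons share libraries with the one above, so the values stand side by side with no test between them. *Apold1*, *Tmem252*, *Ciart* and *Per1* were among the genes called higher in WT_OL than in WT_Basal, with log2 fold changes of 1.29, 1.21, 0.77 and 0.81, while WT_RL against WT_Basal gave -0.09, -0.01, -0.20 and 0.26. *Slc7a11*, *Gbp9*, *Itm2a*, *Slco1a4* and *Cav2* had changes of 0.16, -0.13, -0.19, -0.13 and -0.36 from WT_Basal to WT_OL and of -0.65, -0.88, -0.85, -0.68 and -0.97 from WT_Basal to WT_RL. Of the 24 genes that fell, 7 were called higher in WT_OL than in WT_Basal (3.88% of all genes) and 15 lower in WT_RL than in WT_Basal (7.42%). Of the 16 that rose, 14 were called higher in WT_RL than in WT_Basal (8.28% of all genes), among them *Plin4* (2.45), *Hif3a* (0.72) and *Calr* (0.59), whose changes from WT_Basal to WT_OL were 0.18, -0.0041 and 0.13.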

How the data were processed

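Hippocampal polyA RNA of 18 mice was sequenced by the authors (TruSeq Stranded mRNA per the labels, where the methods name the TruSeq RNA kit without a strand, HiSeq 2000, 100-bp paired reads), aligned with STAR 2.5.1 to mm10, and the authors deposited log2 values per gene, made from CPM after TMM scaling with edgeR 3.12.1 in R 3.3.0. The methods describe a floor of 1 CPM, whereas the deposited log2 values behave as log2(CPM + 1), which was used here. The strand setting of the counting is not given in the sources used here. Of the deposited values, 100.0% corresponded to a whole number of reads within 0.05 reads, which gave the depth, 29248557 to 37915576 reads per library.

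The 18 libraries were fitted together with 1 mean per group in limma 3.58.1 (R 4.3.3, statmod 1.5.0, eBayes with a trend, 12 residual degrees of freedom), and p-values were adjusted by Benjamini-Hochberg over 15329 genes. Genes with an adjusted p under 0.05 are called. Coordinates come from GENCODE M21 (GRCm38) and promoters from RefSeq (GRCm38.p6), which held 34 of the 40 called genes. Figures were drawn with matplotlib 3.10.9.

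Named in the text were the 10 largest rises and the 10 largest falls among called genes without overlap and with a group mean of at least 1 CPM, called members of each gene list (at most 6, or at most 3 by smallest p), the 9 actin genes that the study names, *Ccny*, and the 5 genes with the smallest p for the difference between genotypes. 1 called gene is not reported here. The other 8 called genes (*Lman2l*, *Hnrnph3*, *Pdia6*, *Kif26a*, *Cd180*, *Cav2*, *AI854517*, *Gpt2*) and further list members were chosen after their values were seen. The comparison, the lists and the elements searched were chosen with earlier results of these data known. Each mouse gave 1 library, and the limma p-values set each change against a spread shared by the mice of all 18 libraries. The median SD of a gene was higher in WT_OL and WT_RL than in the other groups, so the shared spread may understate that of the compared mice. Alternatives to the log scale, scaling, GC content, variance model, weights, pairing and libraries were run.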

Additional observations from a re-analysis of the deposited data

How the results depend on the processing

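Calls depended on which libraries set the spread. Of the 40 genes called in WT_RL against WT_OL, 0 remained called in limma with only the libraries compared (799 at an unadjusted p under 0.05), and 2467 genes were called with library weights, where WT_OL replicate 1 took a weight of 300.67 against 0.118 to 0.673 for the other 5 libraries. Leaving out 1 library gave 0 to 2042 calls. The other settings gave 31 (quantile normalization, 25 of them shared with the 40, split 9 higher and 22 lower against 16 and 24) to 50 calls (median-of-ratios scaling), and a floor of 1 CPM gave 41, split 22 and 19, with 30 shared. Voom on recovered reads called 35 (34 shared), with 4 cholesterol genes in place of 5. None of the 40 genes changed sign in any of the 19 settings, and each gene was called in a median of 11. The 181 genes past 1.5-fold at an unadjusted p under 0.05 became 279 with a pseudocount of 0.5 CPM, 63 with 5 CPM, 391 with library weights, 438 with voom on recovered reads, 425 with a ratio of mean CPM, and 106 to 545 without 1 library (294 without WT_RL replicate 2 and 363 without WT_RL replicate 3). For KO_RL against KO_OL, 3 calls became 8 with the floor, 0 with only the libraries compared, 368 with library weights, and 1 to 3 without 1 library. The difference between genotypes had 3 calls with the floor, 494 with library weights and 0 to 21 without 1 library (21 without WT_RL replicate 1, 3 without WT_OL replicate 3). The cause of these shifts was not tested.

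The replicate block, fitted within the libraries compared, gave 0 calls for WT_RL against WT_OL and 0 for KO_RL against KO_OL, also 0 and 0 with the GC correction, with 1670 genes at an unadjusted p under 0.05 for WT. Mice with the same number had correlated deviations from their group means of -0.054, 0.55 and -3.4e-05 in WT, so the numbers were not taken as pairs, and WT_RL replicate 1 correlated best with WT_OL replicate 3.

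Among genes that were not called, signs turned as follows. With quantile normalization the log2 fold change was -0.017 for *Dnajb1*, -0.063 for *Wasf3* and -0.054 for *Actb*. With library weights *Ccny* stood at 0.22. Without 1 library, values ran from -0.086 to 0.13 for *Dnajb1*, from -0.050 to 0.32 for *Cldn5*, from -0.065 to 0.072 for *Wasf3*, from -0.025 to 0.079 for *Actb*, from -0.053 to 0.45 for *Pak3* and from -0.12 to 0.12 for *Ccny*. Counts of called list members under each setting were added after seeing the data. At this depth 1 read equals about 0.03 CPM, and the number of mice limits the precision.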
